A study of Mus musculus with 12 samples.

Results

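The stretches described here are 4 large arrays of olfactory receptor (Olfr) genes in the mouse genome, examined for binding of Ino80 in embryonic stem cells. Their cores were set by position in the mm9 build: 85.2 to 89.7 Mb and 111.0 to 112.1 Mb of chromosome 2, 109.8 to 112.4 Mb of chromosome 7 and 38.0 to 39.8 Mb of chromosome 9. Of the 12749 Ino80 peaks in the deposited list, 6 overlapped a core by at least 1 bp. These 6 peaks are the members, and together the cores span 10 Mb.

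The list came from 1 chromatin immunoprecipitation sequencing (ChIP-seq) library made with an antibody to Ino80 from J1, a line of embryonic stem cells of the mouse. The labels give these cells no knockdown or other treatment, an ESGRO maintenance medium and M15 medium at the time of the ChIP. The other 11 samples of the series, among them the input of this ChIP and those from cells with short hairpin RNAs (non-targeting, or against Ino80), were not analysed here. With 1 library there is no replicate error, so every comparison below describes this library and none carries a p-value.

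INO80 is a chromatin remodelling complex that moves and edits nucleosomes, and Ino80 is its ATPase. Olfactory receptors are G-protein-coupled odorant receptors. Each olfactory sensory neuron expresses a single one of them, and the genes are silent in most other cells. They form one of the largest mammalian gene families and stand in long arrays of neighbouring, related genes. The array on chromosome 7 holds the class I receptors and surrounds the beta-globin genes, while the arrays on chromosomes 2 and 9 hold class II receptors.

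Gene annotation in mm9 was not used here, so the gene content of the cores was not checked in that build, and no peak could be assigned to a gene. The order of genes was taken from RefSeq for a later build, GRCm38.p6, whose positions were not converted to mm9. That table holds 1110 protein-coding Olfr genes, of which 287 lie on chromosome 2, 239 on chromosome 7 and 130 on chromosome 9. A run was counted as consecutive Olfr genes with at most 10 other protein-coding genes between neighbours. The largest run of chromosome 2 holds 222 Olfr genes, and the run that follows it on that chromosome, after 119 other genes, holds 37. On chromosome 7 the largest run holds 91 Olfr genes. It is followed, after 11 protein-coding genes that begin with Trim6 and end with Trim30d, by a run of 35. The largest run of chromosome 9 holds 95.

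Few other genes stand among the receptors. In the run of 222 on chromosome 2 there are 3, Fads2b near one end and the neighbours Pramel7 and Pramel6. Pramel7 is a PRAME-family gene known for its part in naive pluripotency. Of the 222 receptors, 99 precede the Pramel genes and 123 follow them. The run of 91 on chromosome 7 holds 13 other genes, including 5 beta-globin genes (Hbb-bt, Hbb-bs, Hbb-bh2, Hbb-bh1 and Hbb-y), 2 Trim genes and 3 ubiquilin genes. The run of 95 on chromosome 9 holds 3, Vwa5a, AW551984 and Tmem225.

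RefSeq's promoter windows in GRCm38.p6, from 250 bases before to 50 bases after the annotated gene start, were searched for the dinucleotide CG. CG reads the same on both strands. An annotated start can be the start codon, as it appears to be in Olfr1000 below, so a window need not hold the promoter. Of the 582 Olfr genes in runs of at least 30, 495 had a window in the table. These windows held a median of 1 CG, with quartiles at 0 and 2 and a highest value of 8. Over all 27025 genes in the table the median was 7 CG and the quartiles 3 and 21. At least 1 CG was found in 63.8% of the receptor windows and in 94.2% of all windows. None of the 495 receptor windows held 10 CG or more, against 43.9% of all windows. G and C made up a median of 34.0% of the receptor windows and 52.7% of all. The medians of CG were also 1 in the runs of 222 and 37 on chromosome 2, those of 91 and 35 on chromosome 7 and that of 95 on chromosome 9, each taken alone, and in the run of 67 on chromosome 7. The chromosome 9 run of 35 had a median of 0.5. A window of 300 bases does not show whether a CpG island lies near it, and no window was set against a peak, because the builds differ.

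**Figure D1:**
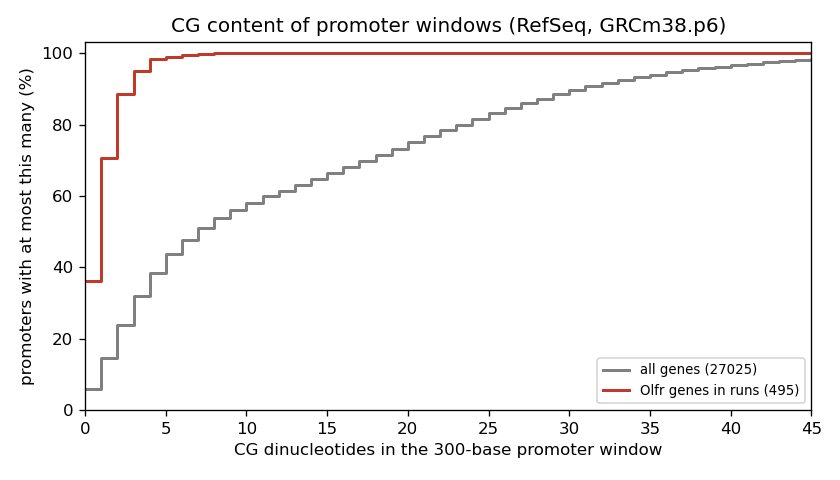
Cumulative share of promoter windows (y axis, percent) by the number of CG dinucleotides in the 300 bases (x axis), for all 27025 genes (grey) and for the 495 Olfr genes in runs of at least 30 (red). The receptor line reaches 100% at 8 CG, while 43.9% of all windows hold 10 or more.

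The receptor window at the median CG of the largest run is printed below for each of the 3 chromosomes. Where several receptors shared that value, the first by symbol was taken. The windows of the 2 Pramel genes that stand among the receptors of chromosome 2 follow. All windows are printed 5′ to 3′ on the gene's strand with each CG in capitals. Positions are in GRCm38.p6 and must not be read against the mm9 positions of peaks and cores.
Olfr1000, chr2:85608859-85609158, minus strand: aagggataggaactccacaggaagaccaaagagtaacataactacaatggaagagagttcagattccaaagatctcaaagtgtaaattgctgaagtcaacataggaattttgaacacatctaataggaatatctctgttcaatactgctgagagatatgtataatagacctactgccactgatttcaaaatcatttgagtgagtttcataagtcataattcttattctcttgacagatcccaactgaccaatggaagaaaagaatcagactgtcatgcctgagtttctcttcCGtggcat
Olfr543, chr7:102477853-102478152, minus strand: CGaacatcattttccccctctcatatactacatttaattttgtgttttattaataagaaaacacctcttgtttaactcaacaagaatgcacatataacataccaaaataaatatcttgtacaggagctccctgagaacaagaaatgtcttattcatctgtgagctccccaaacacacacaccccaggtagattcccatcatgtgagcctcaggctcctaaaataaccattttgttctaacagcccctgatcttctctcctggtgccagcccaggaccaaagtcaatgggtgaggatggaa
Olfr25, chr9:38329242-38329541, plus strand: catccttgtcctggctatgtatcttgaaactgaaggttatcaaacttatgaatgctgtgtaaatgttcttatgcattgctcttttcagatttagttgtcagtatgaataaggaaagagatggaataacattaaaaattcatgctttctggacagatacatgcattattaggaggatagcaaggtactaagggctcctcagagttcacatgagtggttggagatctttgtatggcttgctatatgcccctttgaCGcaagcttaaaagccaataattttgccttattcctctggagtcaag
Pramel7, chr2:87492369-87492668, minus strand: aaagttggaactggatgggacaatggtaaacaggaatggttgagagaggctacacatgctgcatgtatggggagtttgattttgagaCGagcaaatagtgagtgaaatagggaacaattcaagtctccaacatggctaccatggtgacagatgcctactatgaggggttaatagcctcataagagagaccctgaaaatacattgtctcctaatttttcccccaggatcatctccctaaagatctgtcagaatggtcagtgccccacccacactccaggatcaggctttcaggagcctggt
Pramel6, chr2:87506315-87506614, plus strand: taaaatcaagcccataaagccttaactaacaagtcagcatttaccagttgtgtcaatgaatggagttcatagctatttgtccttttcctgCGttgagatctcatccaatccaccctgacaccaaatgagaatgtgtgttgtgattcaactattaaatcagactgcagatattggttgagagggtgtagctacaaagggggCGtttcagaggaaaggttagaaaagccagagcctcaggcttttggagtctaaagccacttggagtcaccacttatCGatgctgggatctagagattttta
The 3 receptor windows hold 1 CG each. The windows of Pramel7 and Pramel6 hold 1 and 3 CG, also below the median of 7 over all genes. That of Fads2b, not printed here, holds 3. These are single windows and do not stand for the other genes inside the runs, too few of which had a window.

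Ino80 peaks were sparse in all 4 arrays. The 6 peaks amounted to 0.600 peaks per Mb over the 10 Mb of cores (95% exact Poisson interval 0.220 to 1.31). The 3 Mb on each side of the cores, 24.0 Mb in all, held 141 peaks, or 5.88 per Mb (interval 4.95 to 6.93). The ratio of the densities was 0.102 (95% exact conditional interval 0.0369 to 0.228). At the density of the flanks the cores would have held 58.8 peaks. These intervals cover the counting error of independent peaks only. Peaks stand in clusters in this list, so the intervals are too narrow.

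The large core on chromosome 2 held 2 peaks in 4.5 Mb, or 0.444 per Mb (interval 0.0538 to 1.61). Its flanks held 16 peaks on the side of the lower coordinates (left) and 31 on the other (right), or 7.83 per Mb together, and the ratio was 0.0567 (0.00668 to 0.217). The core on chromosome 7 held 1 peak in 2.6 Mb, or 0.385 per Mb (0.00974 to 2.14), against 26 and 16 peaks in its flanks and a ratio of 0.0549 (0.00136 to 0.323). At both the interval of the ratio stayed below 1.

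On chromosome 9 the core held 2 peaks in 1.8 Mb, or 1.11 per Mb (0.135 to 4.01), against 17 and 18 in the flanks, a ratio of 0.190 (0.0222 to 0.741). The small core on chromosome 2 held 1 peak in 1.1 Mb, or 0.909 per Mb (0.0230 to 5.07). Its flanks were themselves thinly occupied, with 7 and 10 peaks, and the ratio of 0.321 had an interval from 0.00768 to 2.05 that includes 1. So the density was lower in the core than in each of its flanks at all 4 arrays, with few peaks behind each core value. Since the intervals are too narrow for clustered peaks, whether one includes 1 is a description and not a test. The position of the edges changed these ratios. With every core lengthened by 0.5 Mb at both ends the pooled ratio rose to 0.391. The small array of chromosome 2 turned to 2.08 times its flanks (0.726 to 5.67), chromosome 9 moved to 0.643 (0.268 to 1.39), chromosome 7 to 0.351 (0.141 to 0.764) and the large array of chromosome 2 to 0.0909 (0.0238 to 0.248). With the cores shortened by 0.2 Mb at both ends the chromosome 9 ratio was 0.276 (0.0321 to 1.09), so its interval included 1 under both changes, and the small array of chromosome 2 held no peak. With only peaks at least as wide as the median of the list, no core held a peak. That follows from the members' widths, at most 2200 bp against a list median of 3600 bp. The intervals of the 4 core densities overlap, and no order among the cores was read from them.

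**Figure D2:**
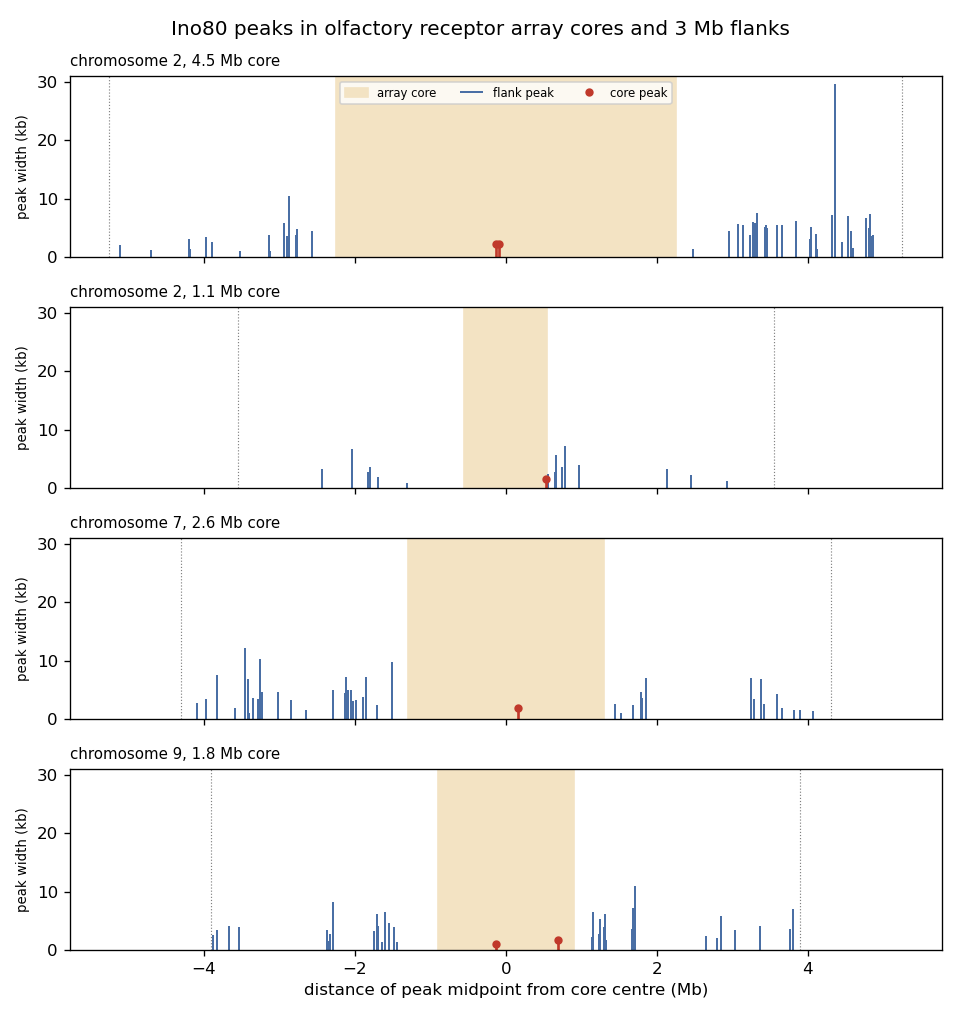
Ino80 peaks by distance of their midpoint from the core centre (x axis, Mb) and width (y axis, kb), for the 4 cores (shaded) and their 3 Mb flanks (outer limits dotted). The 6 core peaks (red, with a dot) are at most 2.2 kb wide. The cores are otherwise empty: 2 of the 6 form a pair in the large chromosome 2 core, 1 lies at the right edge of the small one beside flank peaks, and the other 3 are isolated.

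Sequence covered by peaks showed the same contrast. Peaks covered 10.6 kb, or 0.106%, of the cores and 2.53% of the flanks. Cut into bins of 0.1 Mb, the cores had a peak in 5 of 100 bins, compared with 92 of 240 bins (38.3%) in the flanks. By array, 1 of 45 bins was occupied in the large core of chromosome 2, 1 of 11 in the small one, 1 of 26 on chromosome 7 and 2 of 18 on chromosome 9.

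With the edges pooled, the density rose in the first 0.5 Mb outside the cores, though not at each edge. In the outermost 0.5 Mb inside the cores, pooled over the 8 edges, there were 0.5 peaks per Mb, and in the first 0.5 Mb outside there were 5.50. The next 0.5 Mb held 9.50 peaks per Mb, the highest value of the profile out to 3.0 Mb, and densities from there to 3.0 Mb lay between 4.5 and 5.75. Farther out they varied more, at 2.0 and 3.0 peaks per Mb from 3.0 to 4.0 Mb and at 8.5 and 7.5 from 4.0 to 5.0 Mb. Single edges varied widely: in the first 0.5 Mb outside, 6 of 8 edges had a peak, and the number ran from 0 to 7. The nearest outside peak was 2.00 kb from the right edge of the small core on chromosome 2 and 756 kb from its left edge. At the other 3 cores these distances ran from 146 kb to 534 kb, so the empty sequence reached beyond the core on both sides.

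**Figure D3:**
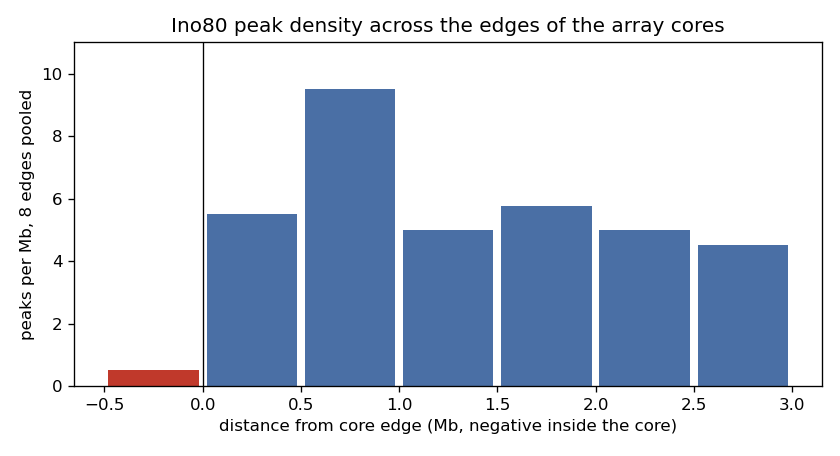
Ino80 peaks per Mb (y axis) in steps of 0.5 Mb from the core edge (x axis, negative inside), with the 8 edges of the 4 cores pooled and each peak placed by its midpoint. The bar inside the edge stands at 0.5 and those outside between 4.5 and 9.50 peaks per Mb.

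Seen against the whole of their own chromosomes, the cores were sparse but not alone. Every window of a core's length was laid on its chromosome in steps of 0.2 Mb between the first and last peak, leaving out windows that touch a core. The GRCm38.p6 gene order has further Olfr runs, such as those of 28 on chromosome 2, 67 on chromosome 7 and 35 on chromosome 9. Such runs were not looked for in the windows, so the windows may hold receptors too. As few peaks as in the large core of chromosome 2 (2 or fewer in 4.5 Mb) were found in 20 of 797 windows, 2.51%, and the median window held 21. For the core on chromosome 7 (1 or fewer in 2.6 Mb) it was 77 of 708 windows, 10.9%, with a median of 13. On chromosome 9 (2 or fewer in 1.8 Mb) it was 95 of 574 windows, 16.6%, with a median of 8. For the small core of chromosome 2 (1 or fewer in 1.1 Mb) it was 203 of 848 windows, 23.9%, with a median of 4. These shares are a background and not p-values, since overlapping windows repeat the same sequence. Sparse windows of the shorter lengths were thus common on these chromosomes, and only the large core of chromosome 2 lay in the lowest 5% of its windows. Sequence in which no read can be placed was not taken out of cores, flanks or windows, and its part in these values was not tested.

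**Figure D4:**
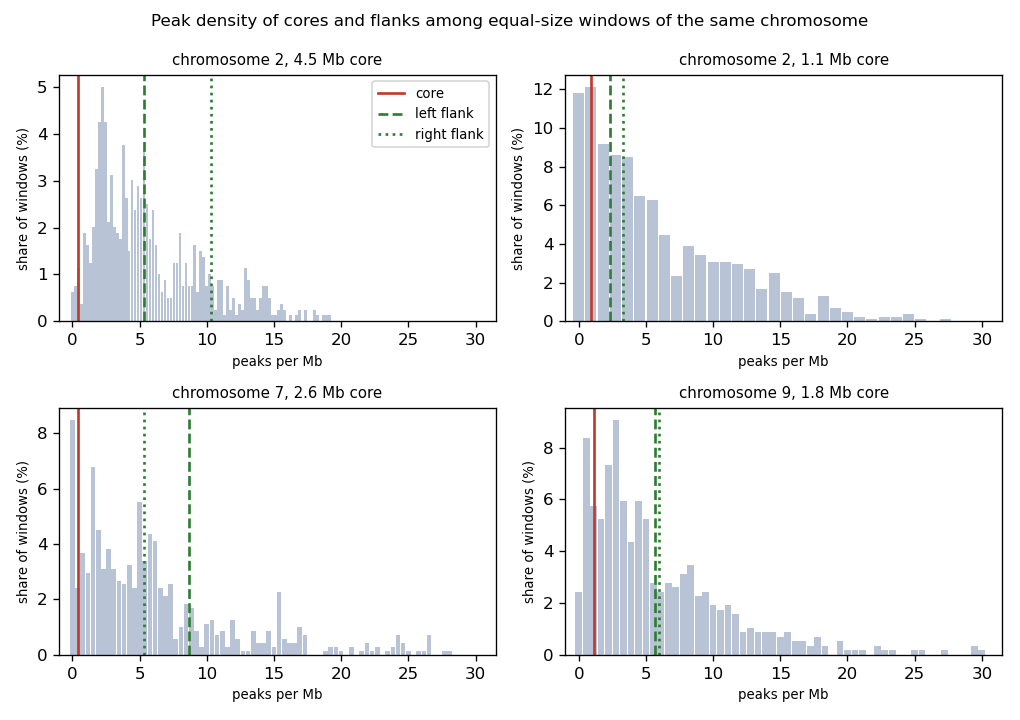
Share of equal-size windows of the same chromosome (y axis, percent) by peaks per Mb (x axis), with the core (red) and its left and right flanks (green, dashed and dotted) marked for each array. Each core lies at the low end of its windows and below both flanks, but 2.51% to 23.9% of windows held as few peaks or fewer.

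Empty stretches filled most of the cores. A stretch here is the sequence between neighbouring peaks, measured over its whole length also where it leaves the core. Stretches of at least 1 Mb made up 89.1% of core sequence and 29.8% of flank sequence. Between the first and last peak of the whole chromosome they made up 34.1% of chromosome 2, 43.9% of chromosome 7 and 34.4% of chromosome 9. By array the share was 99.2% in the large core of chromosome 2, 98.1% in the small one, 99.9% on chromosome 7 and 42.9% on chromosome 9. The 2 peaks of the chromosome 9 core cut it into shorter pieces, and its left flank had a higher share than the core, at 56.6%.

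In the large core of chromosome 2 the 2 peaks stood between stretches of 2.44 Mb (84880001 to 87320800) and 2.57 Mb (87357401 to 89926200). These were at ranks 6 and 5 by length of the 991 stretches on the chromosome, where the median stretch was 48.2 kb and the longest 5.51 Mb. The small core lay almost wholly in a stretch of 1.84 Mb (110243601 to 112079200), rank 10 on the chromosome. On chromosome 7 the single peak divided stretches of 1.67 Mb (109594401 to 111267000) and 1.28 Mb (111268801 to 112546200), at ranks 14 and 23 of 920. On chromosome 9 the stretches measured 1.31 Mb (37465601 to 38772600), 818 kb and 445 kb, at ranks 16, 35 and 69 of 691.

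Long stretches were no rarity on these chromosomes. Chromosomes 2, 7 and 9 had 33, 32 and 27 stretches of at least 1 Mb, and the longest measured 5.51, 7.64 and 2.98 Mb. These counts include the stretches that touch the cores. A stretch inside the window as long as the longest inside the core occurred in 10.9% of windows for the large core of chromosome 2, 13.2% for the small one, 28.8% for chromosome 7 and 43.7% for chromosome 9. The share of a window in stretches of at least 1 Mb told the large core of chromosome 2 and the core of chromosome 7 apart more clearly. For the large core of chromosome 2, 6 of 797 windows (0.753%) reached its 99.2%, against a median window at 28.5%. The share of the small core was reached by 118 of 848 windows (13.9%) and that of chromosome 7 by 69 of 708 (9.75%). On chromosome 9 it was 248 of 574 windows (43.2%).

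The 6 peaks differed in their setting. A pair lay near the middle of the large core of chromosome 2, at 87320801 to 87323000 and 87355201 to 87357400, both 2200 bp wide and 32.2 kb apart. They stood 47.2% and 47.9% of the way along the core, with 2120 kb to the nearer edge for the first and 2160 kb for the second. In the GRCm38.p6 gene order the Pramel genes stand after 44.6% of the receptors of the largest run. That value counts receptors, whereas those of the peaks are shares of core length, so they cannot be matched. Whether the pair lies at these genes was not tested, because the peaks and the gene order come from different builds.

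The peak of the small chromosome 2 core, 1600 bp wide at 112079201 to 112080800, stood 19.2 kb inside the right edge and 21.2 kb from the first flank peak (112102001 to 112103200). It is the only member within 100 kb of a core edge, and with the core shortened by 0.2 Mb at both ends this core held none. The chromosome 7 peak, at 111267001 to 111268800, was 1800 bp wide and the most isolated, with 1280 kb to its nearest neighbour. On chromosome 9 a peak of 1000 bp (38772601 to 38773600) had 818 kb to its nearest neighbour, and one of 1800 bp (39591801 to 39593600) had 445 kb. The members therefore comprised 3 peaks at least 100 kb from any other and 3 with a neighbour at 20 to 100 kb. None had a neighbour under 20 kb, although 63 of the 141 flank peaks and 6445 of the 12749 peaks of the list did. With so few peaks in the cores, this wide spacing is not a trait apart from their low density.

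All 6 were narrow. Their widths ran from 1000 to 2200 bp with a median of 1800 bp, against a median of 3600 bp for the flank peaks (quartiles 2600 and 5400 bp) and 3600 bp for the whole list (quartiles 2400 and 5200 bp). As a description, with the width of the widest member as the limit, 2917 peaks of the whole list, 22.9%, and 30 of 141 flank peaks, 21.3%, were 2200 bp wide or less. That limit was taken from the members, so all 6 fall under it by construction. The narrowest member, at 1000 bp, was as narrow as 2.63% of the list. The flanks by contrast held 47 peaks of at least 5 kb and 5 of at least 10 kb. The widest of these, 29.6 kb, lay to the right of the large core of chromosome 2. Width depends on the window and gap of the peak caller as well as on the protein, and the 200 bp grid sets its steps.

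Isolated peaks are narrower throughout the list, so widths were also set beside those of peaks at a like distance from their neighbours. For the 3 members at least 100 kb from any other peak the widths were 1000, 1800 and 1800 bp, and the 2274 such peaks of the list had a median of 2600 bp with a lower quartile at 1800 bp. The 30 such peaks in the flanks had a median of 3200 bp. For the 3 members at 20 to 100 kb the widths were 1600, 2200 and 2200 bp, and the 4030 such peaks of the list had a median of 3400 bp with a lower quartile at 2400 bp. At like isolation the members thus stood at or below the lower quartile of the list, with only 3 peaks in each class.

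**Figure D5:**
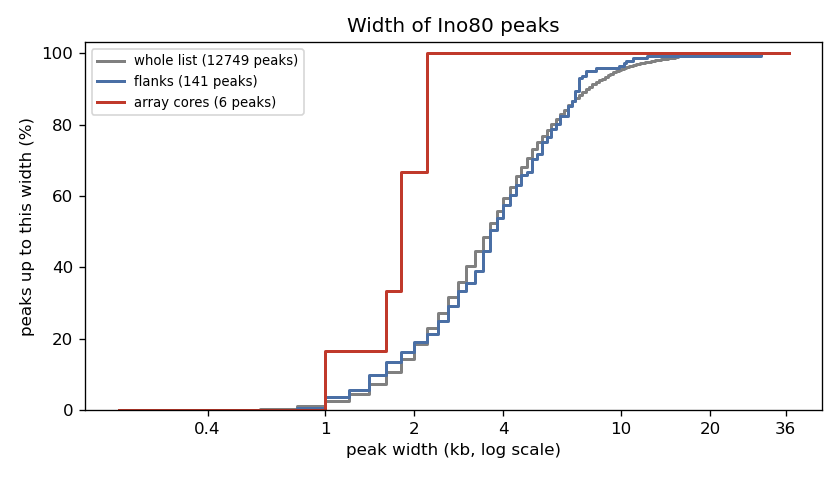
Cumulative share of peaks (y axis, percent) by width (x axis, kb, log scale), for the whole list (grey), the 141 flank peaks (blue) and the 6 core peaks (red). The core peaks end at 2.2 kb, while the lines of flanks and list run close together with medians at 3.6 kb.

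The flanks may hold receptors too. In GRCm38.p6 gene order a further run of 67 Olfr genes follows the 35-gene run of chromosome 7 after 21 other genes. Whether that run lies in the right flank was not determined in mm9. That flank held 5.33 peaks per Mb, with 51.2% of it in stretches of at least 1 Mb, and the left flank held 8.67 with 6.85%. With flanks of 1 or 5 Mb the chromosome 7 ratio was 0.0427 and 0.0566, close to its 0.0549 with 3 Mb. These values cannot show what receptors in a flank would change, because the place of that run in mm9 is unknown.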

How the data were processed

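The deposited file, assigned to the Ino80 ChIP by its name, lists the name, position and an unvarying strand sign of each peak, as called by the authors, without any count, score or p-value, so depth per peak is unknown. Per the submitters' processing notes, CASAVA 1.7, Bowtie 0.12.8, SICER 1.1 and bedtools were used, with the builds mm9 and hg19 named. The sources used here do not give caller settings, the control or any pooling. All 12749 peaks lay on a 200 bp grid, starts were read as counted from 0 with inclusive ends, and 1 bp was added to both printed ends. Core positions follow the mm9 intervals that define the arrays.

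Counts, windows and stretches were computed in Python 3.11.15 with pandas 2.3.3 and scipy 1.17.1, and the code was checked on simulated peaks with known answers. A peak counted in an interval it overlapped by 1 bp. All windows at steps of 0.2 Mb stood in for random ones. The naming rule was to print every core peak if there were 40 or fewer. It also set the gene runs and the genes named inside them. The arrays and lists were chosen with earlier results of these data known, and the CG search was added after the peaks had been seen. Each gene's first listed promoter window was used. The same search over the 10 protein-coding genes on each side of the runs was void, since 99 of 131 had a window, under the 80% required of a set, and so was that over the genes inside the runs, where 23 of 30 had one.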

Additional observations from a re-analysis of the deposited data

How the results depend on the processing

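Of 37 alternative values, 28 stayed within an interval around the reported value and 9 left it. The interval was the exact conditional one for the density ratio, an exact binomial one over windows for window shares (unequal in width, and too narrow since windows overlap) and over 0.1 Mb bins for stretch shares, and the members' range for width. The ratio of core to flank density (0.102) was 0.391 with the cores lengthened by 0.5 Mb at both ends, when the small core of chromosome 2 took in the cluster at its right edge and turned to 2.08 times its flanks (interval 0.726 to 5.67). It was 0 with only the 6579 peaks at least as wide as the list median, of which 78 stood in the flanks. That no core held one follows from the members' widths, all below that median. A count of 0 was taken to allow up to 3 peaks, or 0.300 per Mb. That limit was fixed beforehand, is not one of the exact intervals and does not cover clustering of peaks. The ratio ranged from 0.0800 with flanks of 1 Mb to 0.139 without the large core of chromosome 2 under the other alternatives. The share of windows with as few peaks as the large core of chromosome 2 was 0% with 36 windows laid end to end. With windows from all autosomes it was 29.8% for the small core of chromosome 2, 8.16% for chromosome 7 and 23.4% for chromosome 9. The share of core sequence in empty stretches (89.1%) was 97.3% for stretches of at least 0.5 Mb (flanks 39.5%) and 44.6% for at least 2 Mb (flanks 6.94%). With the wider peaks only it was 100% (flanks 61.6%), by construction, since the cores then held no peak. No paired analysis was possible because no group holds more than 1 sample.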

Other observations

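Some windows outside the 4 cores were as sparse as the cores. The 20 windows of chromosome 2 that matched its large core lay in 4 places, at 39.2 to 43.7 Mb, 43.8 to 48.7 Mb, 94.8 to 101.9 Mb and 174.4 to 179.1 Mb in mm9, with 2, 2, 4 and 2 peaks. The longest of them, 7.10 Mb at 94.8 to 101.9 Mb, held 4 peaks. On chromosome 7 the 77 windows that matched its core lay in 7 places, among them 39.2 to 46.8 Mb with 1 peak, and 20.6 to 24.8 Mb and 32 to 34.8 Mb with 0. On chromosome 9 the 95 matching windows lay in 12 places, the longest at 8.4 to 13.4 Mb with 5 peaks. The gene content of these places was not examined.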
